A study of Mus musculus with 16 samples.

Results

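The transcripts of 42 genes that build the acid, degradative compartment of the cell were followed in bone-marrow-derived macrophages during a response to LPS. The genes encode subunits of the lysosomal proton pump, cathepsins and other proteases, lysosomal hydrolases, lysosomal membrane proteins, and the transcription factor Tfeb (named Tcfeb on the array). They were chosen by name, as the probes whose gene name in the scanner files is one of the 42 symbols, with the probe of highest mean signal standing for each gene. All 42 were found among the 17648 genes tested, and all 42 were well above background on all 16 arrays.

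Macrophages were grown from bone marrow of male C57BL/6Jax mice, either mice lacking the microRNA miR-155 (KO) or wild-type mice (WT), for 9 days with 10 ng/mL of M-CSF, which drives marrow progenitors to become macrophages. The cells were lysed unstimulated (0 h) or after 6, 12 or 24 h with LPS at 100 ng/mL, the endotoxin of Gram-negative bacteria, sensed by macrophages through Tlr4. The 4 times in KO cells and the same 4 in WT cells gave 8 groups of 2 samples, each sample on its own single-colour Agilent array. The labels do not say whether the 2 samples of a group came from separate cultures or animals, so p-values measure the spread between these samples, which may be technical.

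Lysosomes digest material taken up by phagocytosis and endocytosis and the cell's own worn components. A rotary pump, the V-ATPase, spends ATP in its cytosolic V1 sector to drive protons through its membrane-bound V0 sector, and the resulting acidity activates cathepsins and glycosidases that arrive from the Golgi as inactive or poorly active forms. In macrophages the same compartment kills ingested bacteria and cuts proteins into peptides for presentation, and many of its genes carry binding sites for Tfeb and its relatives, which enter the nucleus when the kinase mTORC1 at the lysosomal surface is inactive.

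A pair of sequence sets is shown, since the genotype concerns a microRNA and the gene list includes Tfeb. The mature strand of miR-155 lies at chr16:84714143-84714165 on the plus strand (RefSeq, GRCm38.p6), and its seed, bases 2 to 8, is in capitals. The loss of miR-155 itself was not examined here.
mmu-miR-155-5p: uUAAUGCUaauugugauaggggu

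The letters CACGTG, an E-box of the type that Tfeb and related factors bind, are the same on both strands. RefSeq promoters (250 bases before the start to 50 after it, GRCm38.p6) were found for 35 of the 42 genes. The E-box lay within the 250 upstream bases of 12 of those 35 (34.3%), against 6.86% of all 27025 gene symbols with an entry. The longer form TCACGTG was found in 11 of the 35 (31.4%, against 3.58% of symbols), and TCACGTGA, which contains both shorter forms, in 5 of the 35 (14.3%, against 0.907%). The 12 genes were Atp6v0b, Atp6v1a, Ctsa, Ctsd, Ctsl, Gaa, Gla, Glb1, Lamp1, Lgmn, Mcoln1 and Naglu. Stretches of 7 of them are printed below in the direction of the gene with the E-box in capitals, chosen as those with TCACGTGA or with more than 1 E-box in the stretch. They come from the promoters of Lamp1 (chr8:13159088-13159160, plus strand), Mcoln1 (chr8:3500436-3500491, plus strand), Atp6v0b (chr4:117887330-117887377, minus strand), Ctsd (chr7:142387908-142387937, minus strand), Ctsa (chr2:164833749-164833772, plus strand), Gla (chrX:134601182-134601211, minus strand) and Atp6v1a (chr16:44139373-44139402, minus strand).
Lamp1: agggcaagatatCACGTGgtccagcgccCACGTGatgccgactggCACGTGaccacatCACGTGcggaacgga
Mcoln1: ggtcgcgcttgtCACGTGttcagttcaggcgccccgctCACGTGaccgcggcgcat
Atp6v0b: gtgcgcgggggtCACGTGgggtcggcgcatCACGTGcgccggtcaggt
Ctsd: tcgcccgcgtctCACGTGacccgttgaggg
Ctsa: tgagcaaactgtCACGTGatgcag
Gla: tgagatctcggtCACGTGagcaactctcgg
Atp6v1a: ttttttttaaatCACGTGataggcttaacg

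Lamp1 held 4 E-boxes upstream, the most of any of the 35 genes, and Mcoln1, Atp6v0b, Ctsd and Gla held 2 each. The other 7 of the 12 genes held 1. A match of letters is a description of the reference sequence and not a shown binding site.

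Levels are given as log2 of the background-subtracted probe signal minus the 75th percentile of the same array, so a level of 0 equals that percentile, and differences between levels are log2 ratios. Differences are means over KO and WT with the standard error of a linear model (limma) over the 16 arrays, and a gene passed the test at an adjusted p below 0.05 (Benjamini-Hochberg over all 17648 genes). The 8 arrays numbered 1 were scanned in a session of their own and the 8 numbered 2 in another, and every group had 1 array in each session. Slides were not balanced in this way. In session 1 both 0 h arrays were on slide 1 and both 24 h arrays on slide 2. Slide and time cannot be told apart between those arrays. In each session the KO and WT arrays of 12 h were on different slides. Values from session 1 are printed first in each pair, and the outcome with the session as a term in the model is given where it changes a call. The ± values are standard errors without that term.

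The array signal at the 75th percentile was between 270.1 and 727.0 scanner units, between 56.0% and 67.6% of probes were well above background, and precision is limited by having 2 arrays in each group. All 10 macrophage markers examined (such as Csf1r, Adgre1 and Lyz2) were well above background on all 16 arrays. Elane of neutrophils, Ebf1 of B cells, Ncr1 of NK cells, Alas2 and Epb4.2 of erythroid cells, and Cpa3, Mcpt8 and Ms4a2 of mast cells were not well above background on any. Of 6 dendritic cell markers 5 were higher at 6 h and at 12 h of LPS, and their summed level (log2) was 0.19 to 4.14 on stimulated arrays, against -3.07 to -1.55 on unstimulated arrays. The summed macrophage level was 10.1 to 11.5 on stimulated arrays, against 9.58 to 10.8 on unstimulated arrays. The part of these markers in the lysosomal results was not tested. In a bulk culture, fewer cells of a type and less RNA per cell cannot be told apart.

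Lysosomal genes changed in both directions under LPS. At 6 h, 10 of the 42 genes were higher and 3 were lower, while 19.5% of all genes tested were higher and 21.2% were lower. At 12 h, 8 were higher and 7 lower, against 16.9% and 17.6% of all genes. At 24 h, 4 were higher and 7 lower, against 11% and 11.7% of all genes. Between 6 and 24 h, 1 gene was higher and 7 were lower at the later time, against 14.1% and 12.9% of all genes. The median difference of the 42 genes was 0.01 at 6 h, 0.03 at 12 h and -0.17 at 24 h, beside medians over all genes of 0.05, 0.02 and -0.03, and 24 h against 6 h it was -0.26 beside -0.15.

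With the session as a term, no call was lost. The counts were then 13 higher and 10 lower at 6 h (30.1% and 29.4% of all genes), 12 and 14 at 12 h (26.6% and 26.7%), 6 and 16 at 24 h (20.4% and 21.5%), and 1 and 17 for 24 h against 6 h (22.4% and 26.4%). The arrays of stimulated and unstimulated cells did not overlap for 15 of the 42 genes at 6 h (9 above and 6 below, against 21.7% and 24.3% of all genes), 16 at 12 h (9 and 7, against 20% and 21.3%) and 19 at 24 h (5 and 14, against 16.1% and 16.2%).

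The genes that passed only with the session term were Atp6v1h, Ctss and Gla (higher) and Atp6v0a1, Atp6v1c1, Tpp1, Gaa, Naglu, Lipa and Mcoln1 (lower) at 6 h. At 12 h they were Atp6v1b2, Atp6v1h, Ctss and Gla (higher) and Ctsd, Cd68, Glb1, Gaa, Naglu, Lipa and Mcoln1 (lower). At 24 h they were Gla and Neu1 (higher) and Atp6v1a, Ctsd, Ctsa, Tpp1, Cd63, Cd68, Glb1, Naglu and Lipa (lower). For 24 h against 6 h they were Atp6v0a1, Atp6v1b2, Atp6v1e1, Ctsb, Ctsd, Ctsa, Cd68, Glb1, Gusb and Psap, all lower at 24 h.

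The balance of directions differed between scalings. Under quantile normalization 2 of the 42 genes were higher and 21 lower at 6 h (19.4% and 27.8% of all genes), 3 and 19 at 12 h (16.8% and 22%), 3 and 13 at 24 h (11.9% and 13.7%), and 4 and 2 for 24 h against 6 h (17.8% and 11.1%). Under scaling to the median of each array 4 were higher and none lower at 6 h (17.6% and 15.6% of all genes), 4 and 1 at 12 h (14.7% and 11.4%), 3 and 0 at 24 h (9.74% and 6.53%), and 0 and 1 for 24 h against 6 h (11% and 6.24%). The median of all genes was itself 0.16 at 6 h, 0.24 at 12 h and 0.29 at 24 h under median scaling, and -0.13, -0.05 and -0.01 under quantile normalization, where the 42 genes had medians of -0.66, -0.48 and -0.33. At the 75th percentile, 40 of the 42 genes had mean levels above 0, against 43.9% of all genes tested. The changes that passed kept their direction under 4 scalings (75th percentile, quantile, median, and a normexp background with its highest local values capped), except Atp6v0b at 6 h and Lamp2 at 6 and 12 h, which turned under quantile normalization.

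**Figure D1:**
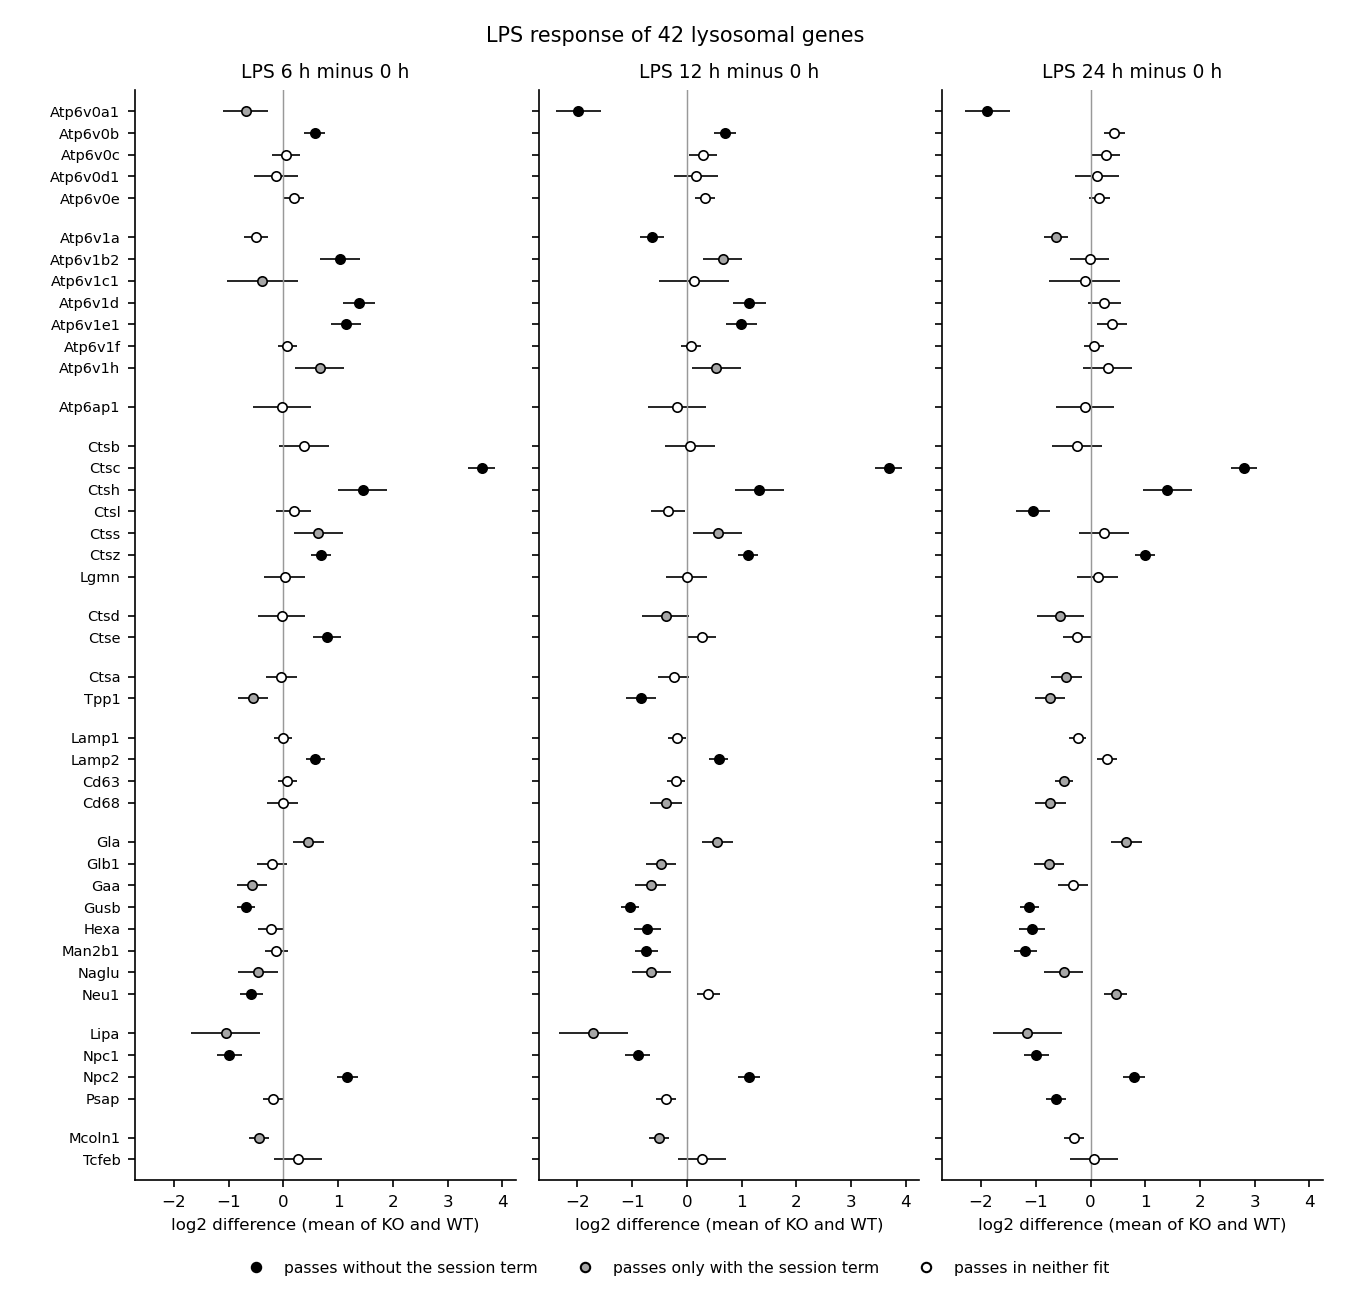
Log2 difference between LPS and 0 h (x axis, mean of KO and WT, with its standard error as the bar) for each of the 42 genes (y axis, by role) at 6, 12 and 24 h. Ctsc lies far to the right at every time, while Atp6v0a1, Gusb, Man2b1, Hexa and Npc1 lie to the left at 24 h, and filled, grey and open points mark genes that passed without the session term, only with it, or in neither fit.

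Subunits of the pump changed in both directions. Among the 5 subunits of the membrane-bound V0 sector, 1 was higher and none lower at 6 h (19.5% and 21.2% of all genes). At 12 h 1 was higher and 1 lower (16.9% and 17.6%), and at 24 h 1 was lower (11.7%). With the session term 1 was higher and 1 lower at 6 h (30.1% and 29.4%). Atp6v0a1 encodes an isoform of the large a subunit, which forms the path of the protons and directs the pump to particular membranes. Atp6v0a1 in KO cells was at 2.82 and 4.61 at 0 h, 2.7 and 3.43 at 6 h, 1.65 and 1.55 at 12 h, and 1.53 and 2.17 at 24 h. Atp6v0a1 in WT cells was at 3.33 and 4.26 at 0 h, 2.65 and 3.5 at 6 h, 1.64 and 2.26 at 12 h, and 1.8 and 1.99 at 24 h. All 12 and 24 h arrays of both genotypes lay below all 4 unstimulated arrays, while 6 h and 0 h arrays overlapped. Atp6v0a1 fell by 1.98 ± 0.41 at 12 h (limma adjusted p = 0.00383) and by 1.89 ± 0.41 at 24 h (adjusted p = 0.00781), or -1.43 and -2.53 within the sessions at 12 h. At 6 h the difference was -0.69 ± 0.41 and passed only with the session term (adjusted p = 0.0431, against 0.216 without it). The other 2 probes for the gene gave -1.99 and -1.91 at 12 h and -2.34 and -2.16 at 24 h.

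Atp6v0b, a part of the rotating proteolipid ring, was the V0 subunit that rose. Atp6v0b in KO cells was at 5.74 and 5.68 at 0 h, 6.31 and 6.25 at 6 h, 6.26 and 6.4 at 12 h, and 5.95 and 6.27 at 24 h. Atp6v0b in WT cells was at 5.85 and 5.25 at 0 h, 6.12 and 6.11 at 6 h, 6.08 and 6.57 at 12 h, and 5.88 and 6.15 at 24 h. Each stimulated array lay above all 4 unstimulated ones, and the margin was narrow at 24 h. Its difference was 0.57 ± 0.20 at 6 h (adjusted p = 0.0399) and 0.70 ± 0.20 at 12 h (adjusted p = 0.0194), and 0.43 ± 0.20 at 24 h, which did not pass. The 6 h call was lost without any of 11 arrays (lowest difference 0.42) and the sign was negative under quantile normalization (-0.18), and the 12 h call was lost without KO array 2 or WT array 2 of 0 h or of 12 h (lowest 0.55). Atp6v0c and Atp6v0e, also parts of the membrane sector, and Atp6v0d1, which couples the ring to the central stalk, did not pass at any time, with differences of -0.13 to 0.33.

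The V1 sector, where ATP is split, held 3 subunits that rose by 6 h. Of its 7 subunits 3 were higher and none lower at 6 h (19.5% and 21.2% of all genes). At 12 h 2 subunits were higher and 1 lower (16.9% and 17.6%), and at 24 h none passed (11% and 11.7%). Their median difference was 0.67 at 6 h, 0.54 at 12 h and 0.07 at 24 h. With the session term 4 were higher and 1 lower at 6 h (30.1% and 29.4% of all genes). It gave 4 and 1 at 12 h (26.6% and 26.7%), and 1 was lower at 24 h (21.5%).

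Atp6v1d encodes a subunit of the central rotor. Atp6v1d in KO cells was at 4.88 and 5.39 at 0 h, 6.29 and 6.56 at 6 h, 5.68 and 6.38 at 12 h, and 4.9 and 5.47 at 24 h. Atp6v1d in WT cells was at 4.9 and 5.47 at 0 h, 6.63 and 6.68 at 6 h, 6.16 and 6.99 at 12 h, and 5.24 and 6.05 at 24 h. The 6 and 12 h arrays all lay above the unstimulated ones, and by 24 h they overlapped again. It rose by 1.38 ± 0.30 at 6 h (adjusted p = 0.00374), a 2.6-fold change, and by 1.14 ± 0.30 at 12 h (adjusted p = 0.0129), and its difference was 0.25 ± 0.30 at 24 h. The decline between 6 and 24 h passed as well, at -1.12 ± 0.30 (adjusted p = 0.0178). The 12 h call was lost without KO array 2 (0.97) or WT array 2 (0.93) of 12 h, and the decline was lost without 6 h array 2 or 24 h array 1 of either genotype (0.92 to 1.11 lower).

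Atp6v1e1, of the peripheral stalk that holds the catalytic head still, ran a like course. Atp6v1e1 in KO cells was at 3.43 and 4.25 at 0 h, 4.85 and 5.14 at 6 h, 4.72 and 4.83 at 12 h, and 3.83 and 4.45 at 24 h. Atp6v1e1 in WT cells was at 3.52 and 4.0 at 0 h, 4.91 and 4.88 at 6 h, 4.59 and 5.04 at 12 h, and 3.81 and 4.67 at 24 h. As with Atp6v1d, 6 and 12 h arrays lay above all unstimulated ones and 24 h arrays overlapped them. It rose by 1.15 ± 0.28 at 6 h (adjusted p = 0.00702) and by 1.0 ± 0.28 at 12 h (adjusted p = 0.0174), and a second probe gave 1.15 and 0.97. The 12 h call was lost without array 1 of KO or WT at 0 h or array 2 of KO or WT at 12 h (lowest 0.79).

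Atp6v1b2, the B subunit found in macrophages and osteoclasts, was higher at 6 h by 1.04 ± 0.36 (adjusted p = 0.0419), a call lost without any of 9 arrays (lowest 0.85). With the session term it was also higher at 12 h (0.65 ± 0.36, adjusted p = 0.0291, against 0.201 without the term). Atp6v1a, the catalytic A subunit, was lower by 0.64 ± 0.22 at 12 h (adjusted p = 0.048). That call was lost without any of 15 of the 16 arrays and held with the session term. At 24 h the Atp6v1a difference was -0.64, which passed only with the term. Atp6v1h, a regulatory subunit, passed only with the session term, higher by 0.67 ± 0.45 at 6 h (adjusted p = 0.00743, against 0.269 without it) and by 0.54 ± 0.45 at 12 h. The other Atp6v1h probes gave 0.59 and -0.08 at 6 h and 0.49 and -0.25 at 12 h. Atp6v1c1 was lower at 6 h with the session term (-0.38 ± 0.65, adjusted p = 0.0466, against 0.677 without it), and Atp6v1f and the accessory subunit Atp6ap1 passed at no time in either fit.

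Isoforms of the a subunit changed in opposite directions. Of 13 further subunit isoforms and assembly factors tested, 2 were higher and 3 lower at 6 h (19.5% and 21.2% of all genes). At 12 h 2 and 4 passed (16.9% and 17.6%), and at 24 h 2 and 1 (11% and 11.7%). Medians were -0.18, -0.08 and -0.14, beside 0.05, 0.02 and -0.03 over all genes. With the session term 4 were higher and 6 lower at 6 h (30.1% and 29.4% of all genes). It gave 2 and 4 at 24 h (20.4% and 21.5%). Atp6v0e2 is counted there, was not well above background on 9 arrays, and has no fold here. Atp6v0a2, the other broadly expressed a subunit isoform, was higher by 1.42 ± 0.18 at 6 h, 1.62 ± 0.18 at 12 h and 1.42 ± 0.18 at 24 h (limma adjusted p = 0.000123, 7.05e-05 and 0.000286). Tcirg1, the a subunit isoform of osteoclasts, was higher by 0.97 ± 0.19, 1.1 ± 0.19 and 0.74 ± 0.19 at the 3 times. Atp6v0d2, the d subunit isoform of osteoclasts and macrophages, fell by 1.89 ± 0.49 at 6 h, 3.26 ± 0.49 at 12 h and 4.49 ± 0.49 at 24 h. These calls of Atp6v0a2, Tcirg1 and Atp6v0d2 held without any single array, except that of Tcirg1 at 24 h, lost without array 1 of KO or WT at 0 h or array 2 of KO or WT at 24 h (lowest 0.62). Dmxl2 and Wdr7, which form a complex that helps assemble the pump, fell by 2.01 ± 0.41 and 1.41 ± 0.40 at 6 h. The Wdr7 call was lost without array 2 of KO or WT at 0 h or array 1 of KO or WT at 6 h (1.08 lower at the least).

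**Figure D2:**
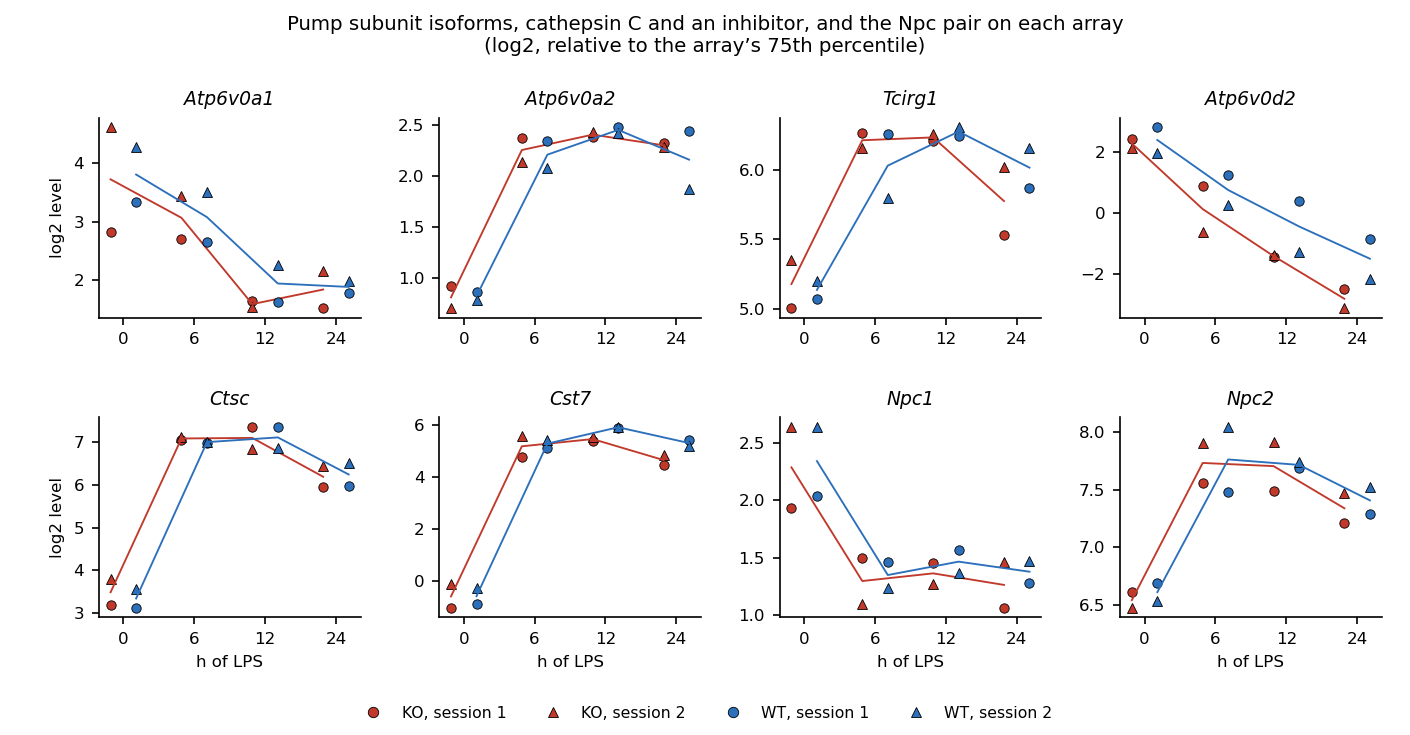
Level on each array (y axis, log2 relative to the array's 75th percentile) against hours of LPS (x axis) for 4 pump subunit isoforms, cathepsin C, the inhibitor Cst7, and Npc1 and Npc2, with KO in red and WT in blue, circles for session 1, triangles for session 2 and lines through group means. Atp6v0a1 and Atp6v0d2 descend while Atp6v0a2 and Tcirg1 climb, Ctsc and Cst7 climb together, and Npc1 descends while Npc2 climbs.

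Cathepsin C had the largest change of the 42 genes. Ctsc encodes dipeptidyl peptidase I, the lysosomal enzyme that activates serine proteases of granules by removing dipeptides from their ends. Ctsc in KO cells was at 3.19 and 3.79 at 0 h, 7.06 and 7.11 at 6 h, 7.36 and 6.83 at 12 h, and 5.94 and 6.44 at 24 h. Ctsc in WT cells was at 3.11 and 3.57 at 0 h, 6.99 and 7.01 at 6 h, 7.35 and 6.87 at 12 h, and 5.97 and 6.52 at 24 h. Every stimulated array exceeded every unstimulated one by more than 2 units. At 6 h both KO arrays lay just above both WT arrays, and at the other times the genotypes overlapped. It rose by 3.63 ± 0.24 at 6 h (limma adjusted p = 2.08e-06), 3.69 ± 0.24 at 12 h and 2.8 ± 0.24 at 24 h, which are 12.3-fold, 12.9-fold and 6.97-fold changes. Within the sessions the 12 h rise was 4.21 and 3.17. The decline between 6 and 24 h was -0.83 ± 0.24 (adjusted p = 0.0295), a call lost without array 1 or 2 of 6 h or array 1 of 24 h in either genotype (0.69 to 0.84 lower).

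Among the 7 cysteine proteases of lysosomes, 3 were higher at each of 6, 12 and 24 h (19.5%, 16.9% and 11% of all genes). None was lower at 6 and 12 h, and 1 was lower at 24 h (21.2%, 17.6% and 11.7% of all genes). Their median differences were 0.64, 0.56 and 0.25. The 3 that rose were Ctsc, Ctsz and Ctsh.

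Ctsz, a carboxypeptidase also named cathepsin X, rose at every time. Ctsz in KO cells was at 7.18 and 7.24 at 0 h, 7.86 and 8.08 at 6 h, 8.26 and 8.09 at 12 h, and 8.01 and 8.17 at 24 h. Ctsz in WT cells was at 7.26 and 6.93 at 0 h, 8.0 and 7.42 at 6 h, 8.41 and 8.33 at 12 h, and 8.31 and 8.09 at 24 h. The lowest stimulated array, WT array 2 at 6 h, still lay above the highest unstimulated one. It rose by 0.69 ± 0.18 at 6 h (adjusted p = 0.0126), 1.12 ± 0.18 at 12 h (adjusted p = 0.00099) and 0.99 ± 0.18 at 24 h (adjusted p = 0.00322), and a second probe gave 0.82, 1.12 and 1.1. The 6 h call was lost without WT array 2 of 0 h (0.61) or WT array 1 of 6 h (0.54), and under quantile normalization the 6 h difference was 0.02.

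Ctsh, an aminopeptidase, had values that depended on the session. Ctsh in KO cells was at 6.81 and 5.17 at 0 h, 7.11 and 7.43 at 6 h, 7.0 and 7.16 at 12 h, and 7.03 and 7.08 at 24 h. Ctsh in WT cells was at 6.6 and 4.53 at 0 h, 7.14 and 7.24 at 6 h, 6.9 and 7.33 at 12 h, and 7.22 and 7.39 at 24 h. Both unstimulated arrays of session 2 were low (5.17 in KO and 4.53 in WT), those of session 1 were not (6.81 in KO and 6.6 in WT), and all stimulated arrays lay above all 4. It was higher by 1.45 ± 0.44 at 6 h (adjusted p = 0.0238), 1.32 ± 0.44 at 12 h (adjusted p = 0.0414) and 1.41 ± 0.44 at 24 h (adjusted p = 0.0449). Within the sessions the differences were 0.42 and 2.49 at 6 h, 0.25 and 2.4 at 12 h and 0.42 and 2.39 at 24 h. The 6 h call was lost without array 2 of KO or WT at 0 or 6 h or WT array 1 at 6 h (lowest 0.93), and the 12 and 24 h calls were lost without any of 14 arrays (lowest 0.81 and 0.89).

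Ctsl, an endopeptidase of broad action, passed late. Its level at 24 h was 7.44 and 7.43 in KO cells and 7.51 and 7.35 in WT cells, against 9.13 and 7.91 in unstimulated KO cells and 8.96 and 7.92 in unstimulated WT cells. It fell by 1.05 ± 0.31 at 24 h (adjusted p = 0.0353) and by 1.23 ± 0.31 between 6 and 24 h (adjusted p = 0.0147). Within the sessions the 24 h difference was -1.57 and -0.52. The 24 h call was lost without any of 6 arrays (0.74 lower at the least) and that for 24 h against 6 h without array 1 of KO or WT at 6 h (1.12 lower at the least).

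Ctss, the cathepsin that trims the invariant chain in antigen-presenting cells, passed only with the session term, higher by 0.64 ± 0.45 at 6 h (adjusted p = 0.0106, against 0.294 without it) and by 0.56 ± 0.45 at 12 h (adjusted p = 0.0224, against 0.387). Its promoter held GAAANNGAAA, a repeat of the kind bound by interferon regulatory factors, which was searched on both strands and does not overlap the E-box. That motif was present in 3 of the 35 promoters (8.57%), those of Ctss, Atp6v1d and Lamp1, against 3.46% of all symbols. Lamp1 passed at no time, while Ctsc, Ctsz and Npc2 rose at every time and had promoter entries without the motif. A link between motif and response was not tested. The stretches of Ctss (chr3:95526753-95526785, plus strand) and Atp6v1d (chr12:78861848-78861881, minus strand) are printed because both genes were higher at 6 h in at least 1 fit, with the motif in capitals, read on the opposite strand in Atp6v1d.
Ctss: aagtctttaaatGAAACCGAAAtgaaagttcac
Atp6v1d: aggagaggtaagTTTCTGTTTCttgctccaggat

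Ctsb, an abundant endopeptidase, had differences of 0.37 ± 0.46, 0.06 ± 0.46 and -0.24 ± 0.46 at the 3 times and passed at none. A second Ctsb probe gave -0.88, -1.47 and -2.21, so the direction at 6 and 12 h depends on the probe. Lgmn, the asparaginyl endopeptidase legumain, stayed between -0.01 and 0.13.

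Ctse is an aspartic protease of endosomes. Ctse in KO cells was at -3.16 and -4.18 at 0 h, -3.6 and -3.25 at 6 h, -3.47 and -3.1 at 12 h, and -4.32 and -4.58 at 24 h. Ctse in WT cells was at -3.76 and -4.38 at 0 h, -2.83 and -2.62 at 6 h, -4.03 and -3.76 at 12 h, and -3.87 and -3.7 at 24 h. In WT cells both 6 h arrays were the highest of all 16, while the KO arrays at 6 h lay within the range of the unstimulated arrays. Over both genotypes it was higher by 0.79 ± 0.26 at 6 h (adjusted p = 0.0297), or 0.25 and 1.34 within the sessions, and lower by 1.04 ± 0.26 at 24 h than at 6 h (adjusted p = 0.0127). The 6 h call was lost without array 2 of KO or WT at 0 or 6 h or WT array 1 at 6 h (lowest 0.54). Ctsd, the main aspartic protease of lysosomes, had differences of -0.03, -0.39 and -0.55 and passed only with the session term, at 12 h (adjusted p = 0.0494, against 0.541 without it) and at 24 h (adjusted p = 0.0147, against 0.419).

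Of the 2 serine proteases, Tpp1, a tripeptidyl peptidase, fell by 0.85 ± 0.27 at 12 h (adjusted p = 0.0348), a call lost without KO array 2 or either WT array of 0 h or array 1 of KO or WT at 12 h (0.70 lower at the least). Allowing for the session, it was also lower at 6 h (-0.56 ± 0.27, adjusted p = 0.0047, against 0.132 without it) and at 24 h (-0.74 ± 0.27, adjusted p = 0.00161, against 0.0793). Ctsa, the protective protein that holds Neu1 and Glb1 in a complex, was lower at 24 h with that term only (-0.44 ± 0.28, adjusted p = 0.0301, against 0.312 without it), and its other probes gave -1.14 and -1.50.

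A further set of 10 genes tested held lysosomal proteases, the thioesterases Ppt1 and Ppt2, and the reductase Ifi30. None was higher and 1 was lower at 6 h (19.5% and 21.2% of all genes). The counts were none and 4 at 12 h (16.9% and 17.6%), and 1 and 2 at 24 h (11% and 11.7%). Their medians were -0.41, -0.26 and -0.33, beside 0.05, 0.02 and -0.03 over all genes. When the session was fitted, 1 was higher and 4 were lower at 6 h (30.1% and 29.4% of all genes). The gene counted as higher was Ppt2 each time, and its 24 h call was lost without any of 12 arrays (lowest 0.71). Ctsf, another cysteine cathepsin, fell by 1.04 ± 0.24 at 12 h and 1.54 ± 0.24 at 24 h. Ifi30, a reductase that opens disulfide bonds of antigens, fell by 1.15 ± 0.22 at 12 h. The inhibitors of cathepsins were led by Cst7, cystatin F, which acts on cathepsin C. Cst7 in KO cells was at -1.04 and -0.12 at 0 h, 4.8 and 5.6 at 6 h, 5.41 and 5.55 at 12 h, and 4.46 and 4.88 at 24 h. Cst7 in WT cells was at -0.88 and -0.26 at 0 h, 5.15 and 5.45 at 6 h, 5.9 and 5.96 at 12 h, and 5.44 and 5.2 at 24 h. Stimulated arrays exceeded unstimulated ones by more than 4 units throughout. Cst7 rose by 5.82 ± 0.27 at 6 h (limma adjusted p = 2.76e-07), 6.28 ± 0.27 at 12 h and 5.57 ± 0.27 at 24 h. Of the 6 inhibitors tested, 2 were higher and none lower at 6 h (19.5% and 21.2% of all genes). At 12 h the counts were 2 and 1 (16.9% and 17.6%), and at 24 h 1 and 1 (11% and 11.7%). Inhibitor medians were 0.58, 0.59 and -0.19, beside 0.05, 0.02 and -0.03 over all genes. With the session term 3 and 1 passed at 6 h (30.1% and 29.4%). Cst6 fell by 1.19 ± 0.28 at 12 h and 1.68 ± 0.28 at 24 h.

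Of the 4 glycoproteins of the lysosomal membrane, only Lamp2 passed against 0 h without the session term. Lamp2 serves in chaperone-mediated autophagy and in the fusion of phagosomes with lysosomes. Lamp2 in KO cells was at 6.13 and 6.19 at 0 h, 6.34 and 6.81 at 6 h, 6.44 and 6.74 at 12 h, and 6.14 and 6.36 at 24 h. Lamp2 in WT cells was at 6.1 and 5.96 at 0 h, 6.74 and 6.84 at 6 h, 6.75 and 6.79 at 12 h, and 6.42 and 6.68 at 24 h. At 6 and 12 h all arrays lay above the unstimulated ones, and at 24 h KO array 1 lay among them. It was higher by 0.58 ± 0.18 at 6 h (adjusted p = 0.022) and by 0.58 ± 0.18 at 12 h (adjusted p = 0.0263), and its other probes gave 1.15 and 1.16 at 6 h and 1.21 and 0.77 at 12 h. Under quantile normalization the differences of the first probe were -0.17 and -0.01. The 6 h call was lost without KO array 1 or WT array 2 of 0 h or array 2 of KO or WT at 6 h (lowest 0.47), and the 12 h call without any of 7 arrays (lowest 0.51). Lamp1, the most abundant partner of Lamp2 in the membrane, had differences of -0.18 at 12 h and -0.24 at 24 h and passed at no time.

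The tetraspanin Cd63 was lower at 24 h than at 6 h by 0.56 ± 0.17 (adjusted p = 0.0328), a call lost without any of 6 arrays (0.45 lower at the least). Once the session was a term, Cd63 was also lower at 24 h than at 0 h (-0.48 ± 0.17, adjusted p = 0.0191, against 0.0646 without it). Cd68, a macrophage marker of late endosomes, was lower with that term at 12 h (-0.38 ± 0.28, adjusted p = 0.0482, against 0.344) and at 24 h (-0.74 ± 0.28, adjusted p = 0.00286, against 0.0917).

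**Figure D3:**
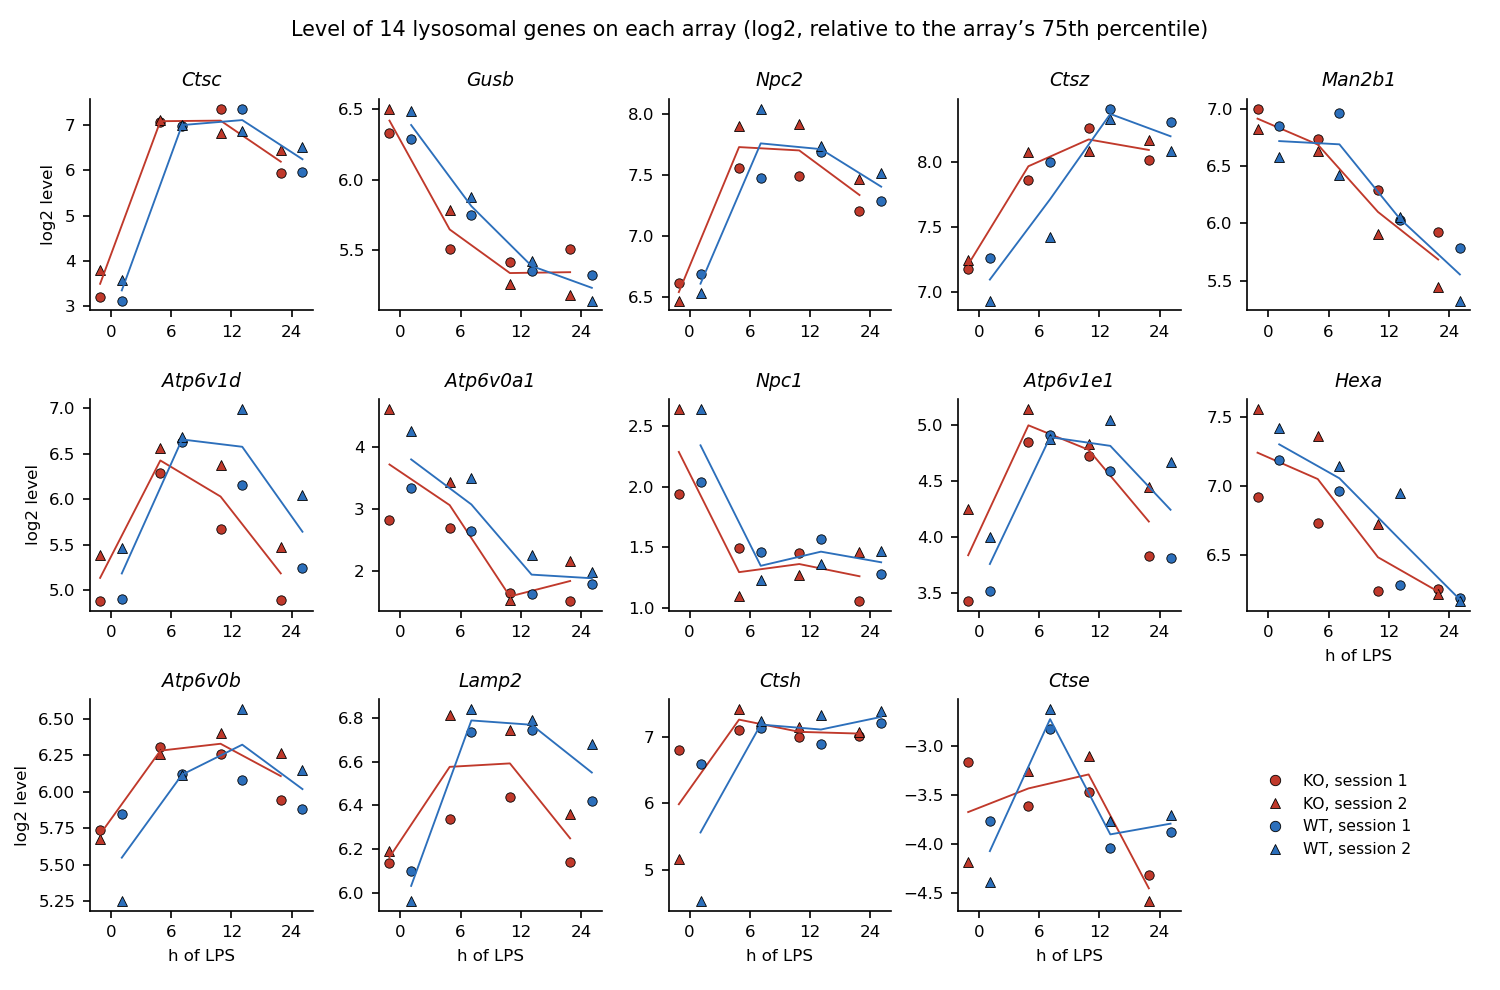
Level on each array (y axis, log2 relative to the array's 75th percentile) against hours of LPS (x axis) for the 14 genes whose array values are given, with KO in red and WT in blue, circles for session 1, triangles for session 2 and lines through group means. Ctsc, Npc2 and Ctsz stand above their unstimulated arrays at every later time, Gusb and Npc1 stand below them, and the 2 low unstimulated arrays of Ctsh belong to session 2.

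Of the 8 glycosidases, none was higher and 2 were lower at 6 h without the session term, none and 3 at 12 h, and none and 3 at 24 h. Over all genes 19.5% were higher and 21.2% lower at 6 h, 16.9% and 17.6% at 12 h, and 11% and 11.7% at 24 h. Their median difference was -0.34 at 6 h, -0.66 at 12 h and -0.62 at 24 h. Allowing for the session, 1 was higher and 4 lower at 6 h (30.1% and 29.4% of all genes). The counts were then 1 and 6 at 12 h (26.6% and 26.7%), and 2 and 5 at 24 h (20.4% and 21.5%).

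Gusb, the beta-glucuronidase that cuts glycosaminoglycans, fell at every time. Gusb in KO cells was at 6.34 and 6.51 at 0 h, 5.51 and 5.79 at 6 h, 5.42 and 5.26 at 12 h, and 5.51 and 5.18 at 24 h. Gusb in WT cells was at 6.29 and 6.49 at 0 h, 5.75 and 5.88 at 6 h, 5.35 and 5.42 at 12 h, and 5.33 and 5.14 at 24 h. Unstimulated arrays were the 4 highest, with no overlap at any time. It fell by 0.67 ± 0.17 at 6 h (limma adjusted p = 0.00805), 1.04 ± 0.17 at 12 h (adjusted p = 0.000804) and 1.12 ± 0.17 at 24 h (adjusted p = 0.000836). A second Gusb probe gave smaller differences of -0.20, -0.28 and -0.32.

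Man2b1, the lysosomal alpha-mannosidase, fell later. Man2b1 in KO cells was at 7.0 and 6.82 at 0 h, 6.74 and 6.63 at 6 h, 6.29 and 5.91 at 12 h, and 5.92 and 5.45 at 24 h. Man2b1 in WT cells was at 6.85 and 6.58 at 0 h, 6.96 and 6.42 at 6 h, 6.03 and 6.06 at 12 h, and 5.79 and 5.33 at 24 h. The 6 h arrays overlapped the unstimulated ones, and the 12 and 24 h arrays lay below them all. The difference was -0.13 ± 0.21 at 6 h, and it fell by 0.74 ± 0.21 at 12 h (adjusted p = 0.0186) and 1.19 ± 0.21 at 24 h (adjusted p = 0.00222). The decline from 6 h onward passed as well (-1.07 ± 0.21 for 24 h against 6 h, adjusted p = 0.00402). The 12 h call was lost without KO array 1 or WT array 1 of 0 h or KO array 2 of 12 h (0.65 to 0.70 lower).

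Hexa, the alpha subunit of the hexosaminidase that degrades the ganglioside GM2, also passed at 12 and 24 h. Hexa in KO cells was at 6.92 and 7.56 at 0 h, 6.74 and 7.37 at 6 h, 6.24 and 6.73 at 12 h, and 6.26 and 6.22 at 24 h. Hexa in WT cells was at 7.19 and 7.42 at 0 h, 6.97 and 7.15 at 6 h, 6.28 and 6.95 at 12 h, and 6.19 and 6.17 at 24 h. At 24 h all 4 arrays lay close together and below every unstimulated array, while at 12 h WT array 2 overlapped the unstimulated range. Hexa fell by 0.72 ± 0.24 at 12 h (adjusted p = 0.0396) and 1.06 ± 0.24 at 24 h (adjusted p = 0.00944), and by 0.85 ± 0.24 between 6 and 24 h (adjusted p = 0.025). The 12 h call was lost without any of 11 arrays (0.55 lower at the least) and that for 24 h against 6 h without any of 7 (0.69 lower at the least).

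Neu1 is the sialidase that the Ctsa protein protects. It was lower at 6 h by 0.59 ± 0.21 (adjusted p = 0.0457), a call lost without any of 12 arrays (0.45 lower at the least). Between 6 and 24 h it rose by 1.05 ± 0.21 (adjusted p = 0.00453), the only one of the 42 genes to do so, with 24 h levels of 5.58 and 6.08 in KO cells and 5.77 and 6.16 in WT cells, against 6 h levels of 4.63 and 5.17 in KO cells and 4.82 and 4.75 in WT cells. The 24 h and 6 h arrays did not overlap, and within the sessions this rise was 0.95 and 1.16. A second Neu1 probe gave 1.21. Another, which maps to the opposite strand and had a mean level of -4.08, gave 0.81.

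The remaining 4 glycosidases passed only with the session term. Gla, the alpha-galactosidase, was higher (0.65 ± 0.28 at 24 h, adjusted p = 0.0154, against 0.133 without the term). The beta-galactosidase Glb1 was lower (-0.76 ± 0.27 at 24 h, adjusted p = 0.00131, against 0.074), and its other probes gave -0.60 and 0.48. Gaa, the acid maltase, was lower at 12 h (-0.66 ± 0.28, adjusted p = 0.0159, against 0.0898), as was Naglu, which acts on heparan sulfate (-0.65 ± 0.36, adjusted p = 0.0114, against 0.197).

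Of 31 further lysosomal hydrolases tested, 3 were higher and 10 lower at 6 h (19.5% and 21.2% of all genes). The counts were 3 and 12 at 12 h (16.9% and 17.6%), and 2 and 7 at 24 h (11% and 11.7%). Hydrolase medians were -0.08, -0.20 and -0.11, beside 0.05, 0.02 and -0.03 over all genes. When the session was fitted, 4 were higher and 10 lower at 24 h (20.4% and 21.5% of all genes). The phosphatases Acp5 and Acp2 rose by 4.44 ± 0.49 and 2.21 ± 0.27 at 6 h and by 3.24 ± 0.49 and 3.07 ± 0.27 at 24 h. Sgsh, a sulfamidase in the breakdown of heparan sulfate, fell by 3.27 ± 0.20 at 6 h and 1.6 ± 0.20 at 24 h (limma adjusted p = 1.04e-06 and 0.00025). Dnase2a, which digests DNA of engulfed cells, fell by 3.68 ± 0.35 at 6 h and 1.19 ± 0.35 at 24 h, the later call lost without any of 6 arrays (1.0 lower at the least). Galc, which degrades galactosylceramide, fell by 2.55 ± 0.31 at 12 h, and Hyal1, a hyaluronidase, by 2.89 ± 0.44.

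Among the genes of lipid handling, the 2 partners of cholesterol export moved in opposite directions. Npc2 binds cholesterol inside the lysosome and hands it to Npc1, which carries it through the membrane. Npc2 in KO cells was at 6.61 and 6.47 at 0 h, 7.56 and 7.91 at 6 h, 7.49 and 7.92 at 12 h, and 7.21 and 7.47 at 24 h. Npc2 in WT cells was at 6.69 and 6.53 at 0 h, 7.48 and 8.05 at 6 h, 7.69 and 7.74 at 12 h, and 7.29 and 7.52 at 24 h. All stimulated arrays lay above all unstimulated ones. Npc2 rose by 1.17 ± 0.20 at 6 h (limma adjusted p = 0.000833), 1.13 ± 0.20 at 12 h (adjusted p = 0.00137) and 0.80 ± 0.20 at 24 h (adjusted p = 0.0149). The 24 h call was lost without array 2 of KO or WT at 0 or 24 h (lowest 0.73).

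Npc1 in KO cells was at 1.94 and 2.63 at 0 h, 1.49 and 1.1 at 6 h, 1.46 and 1.27 at 12 h, and 1.06 and 1.47 at 24 h. Npc1 in WT cells was at 2.04 and 2.64 at 0 h, 1.46 and 1.23 at 6 h, 1.57 and 1.36 at 12 h, and 1.28 and 1.47 at 24 h. Here all stimulated arrays lay below all unstimulated ones. Npc1 fell by 0.99 ± 0.23 at 6 h (adjusted p = 0.00551), 0.90 ± 0.23 at 12 h (adjusted p = 0.0114) and 0.99 ± 0.23 at 24 h (adjusted p = 0.0104). Within the sessions the 6 h difference was -0.51 and -1.47. All 3 calls held without any single array and kept their sign under the 4 scalings.

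Lipa, the acid lipase that frees cholesterol from lipoproteins, passed only with the session term. Lipa in KO cells was at 6.14 and 5.4 at 0 h, 5.22 and 4.41 at 6 h, 5.08 and 2.73 at 12 h, and 5.13 and 3.86 at 24 h. Lipa in WT cells was at 6.05 and 5.3 at 0 h, 5.08 and 3.98 at 6 h, 4.95 and 3.27 at 12 h, and 5.46 and 3.83 at 24 h. Session 2 arrays were below session 1 arrays in every group. The differences were -1.05 ± 0.63, -1.71 ± 0.63 and -1.15 ± 0.63 at the 3 times, with adjusted p = 0.00648, 0.000428 and 0.00634 with the term, against 0.217, 0.059 and 0.232 without it. A second probe gave -2.05, -1.04 and -0.84. Psap, the precursor of the saposins that help hydrolases reach lipids, fell by 0.63 ± 0.18 at 24 h (adjusted p = 0.0298), a call lost without any of 7 arrays (0.54 lower at the least). Its mean level at 0 and 24 h was 8.19 and 7.17 in KO cells, and 8.14 and 7.92 in WT cells.

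Tcfeb itself did not pass in either fit, with differences of 0.27 ± 0.44, 0.27 ± 0.44 and 0.06 ± 0.44. Mcoln1, the calcium channel of the lysosomal membrane, passed only with the session term, lower by 0.44 ± 0.18 at 6 h (adjusted p = 0.0164, against 0.0833 without it) and by 0.52 ± 0.18 at 12 h (adjusted p = 0.0081, against 0.051). A second Mcoln1 probe gave -2.12, -2.24 and -1.72. The 12 genes with the E-box upstream had differences of -0.57 to 0.57 at 6 h, -0.66 to 0.70 at 12 h and -1.05 to 0.65 at 24 h, with medians of -0.03, -0.36 and -0.38. Of these 12, 1 was higher and none lower at 6 h (19.5% and 21.2% of all genes). At 12 h 1 and 1 passed (16.9% and 17.6%), and at 24 h none and 1 (11% and 11.7%). The 23 genes with a promoter entry and no E-box in it ranged from -1.05 to 3.63, from -1.98 to 3.69 and from -1.89 to 2.80. Their medians were 0.045, 0.17 and 0.07. Among these 23, 6 were higher and 2 lower at 6 h, 6 and 5 at 12 h, and 3 and 5 at 24 h. The same shares of all genes stand beside both sets, and the difference between the sets was not tested.

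Of 17 further genes around Tfeb and mTORC1, 2 were higher and 4 lower at 6 h (19.5% and 21.2% of all genes). At 12 h 2 and 3 passed (16.9% and 17.6%), and at 24 h none and 3 (11% and 11.7%). The medians were -0.27, -0.18 and -0.31, beside 0.05, 0.02 and -0.03 over all genes. Once the session was a term, 4 were higher and 6 lower at 6 h (30.1% and 29.4% of all genes). It gave 4 and 4 at 12 h (26.6% and 26.7%), and 2 and 6 at 24 h (20.4% and 21.5%). Rragd, a GTPase that brings mTORC1 to the lysosome, fell by 3.38 ± 0.43 at 6 h, 3.33 ± 0.43 at 12 h and 1.74 ± 0.43 at 24 h (limma adjusted p = 0.00014, 0.000222 and 0.0157). Flcn, which acts on the Rragd GTPase itself, fell by 2.46 ± 0.29, 1.24 ± 0.29 and 0.97 ± 0.29. The 24 h calls of both were lost without array 2 of KO or WT at 0 h or array 1 of KO or WT at 24 h (Rragd -1.41 and Flcn -0.76 at the weakest). Rheb, the activator of mTORC1, was higher by 0.84 ± 0.26 at 6 h, a call lost without array 1 of KO or WT at 0 h or array 2 of KO or WT at 6 h (lowest 0.66). Rragb was not well above background on 13 arrays and has no fold here.

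**Figure D4:**
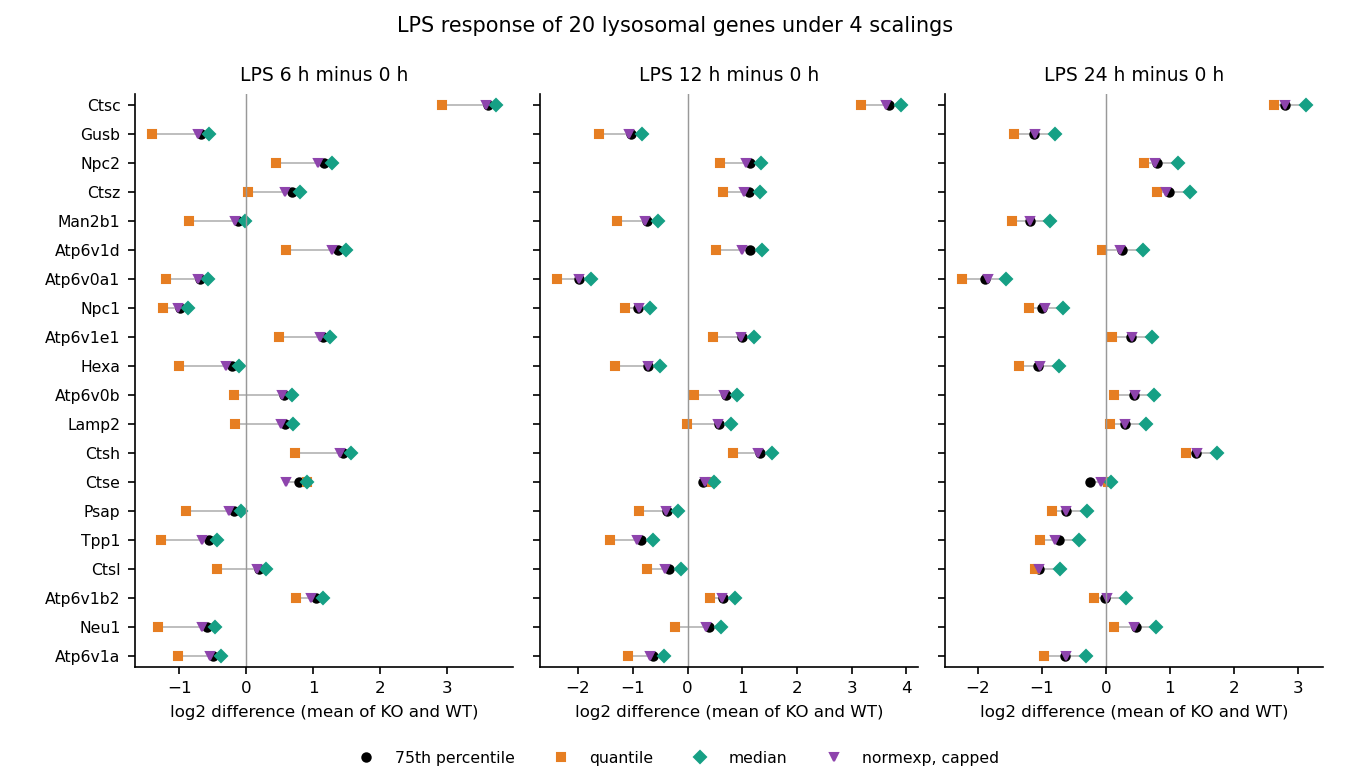
Log2 difference between LPS and 0 h (x axis, mean of KO and WT) for the 20 genes that passed at 1 or more times (y axis) under 4 ways of scaling the arrays, at 6, 12 and 24 h. Quantile normalization lies left of the other 3 for most genes, by enough at 6 h to carry Atp6v0b and Lamp2 across 0, while Ctsc, Npc2, Gusb and Npc1 stay on their own side.

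The comparison of genotypes asked whether loss of miR-155 altered the level or the LPS response of these genes. None of the 42 genes passed for KO against WT, averaged over the 4 times or at any time, in limma with or without the session term. At an unadjusted p below 0.05 none did averaged over the times or at 0, 6 or 12 h, and 1 did at 24 h. Of all genes tested, 0.017% passed for the average, 0% at 0 h, 0% at 6 h, 0.0113% at 12 h and 0% at 24 h, and with the session term 0.0227%, 0.00567%, 0.0113%, 0.017% and 0%. For the joint test of a different LPS response, 0% passed without and 0.0113% with the session term, and none of the 42 did, and at an unadjusted p below 0.05 none did without the term and 1 did with it (Ctse, 0.0412). No gene of the 7 further lists passed for KO against WT in either fit.

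Averaged over the times, the KO minus WT differences of the 42 genes ran from -0.32 (Atp6v1d) to 0.13 (Ctss), with a median of -0.04. All 42 were within 0.5 of 0, and the 95% intervals of 41 lay between -1 and 1. At single times the median half-width of the interval was 0.86. At 12 h 38 of the 42 differences were below 0 (median -0.16, beside 0.02 over all genes), and 4 were above. Without WT array 2 of 12 h that median was -0.043, beside -0.019 over all genes, and with slides as a block it was -0.021, beside 0.026. It was -0.243 without WT array 1 of 12 h, beside 0.079 over all genes. Without KO array 1 of 12 h it was -0.118, beside -0.010, and without KO array 2 it was -0.206, beside 0.103. Under median scaling it was -0.280, beside -0.098.

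The 1 gene below an unadjusted p of 0.05 at 24 h was Psap, named here after its values were seen. Psap in KO cells was at 8.23 and 8.15 at 0 h, 7.8 and 8.17 at 6 h, 7.37 and 7.81 at 12 h, and 7.13 and 7.2 at 24 h. Psap in WT cells was at 8.32 and 7.97 at 0 h, 7.87 and 8.08 at 6 h, 7.95 and 8.03 at 12 h, and 7.94 and 7.9 at 24 h. At 24 h the KO arrays lay below the WT arrays in both sessions, likewise at 12 h, and at 0 and 6 h they overlapped. The difference at 24 h was -0.75 (95% interval -1.31 to -0.19), with a limma adjusted p of 0.999973 without and 0.847 with the session term. The response of Psap to 24 h of LPS differed between KO and WT by -0.80 (interval -1.60 to -0.01), which failed the correction likewise.

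Ctse had the lowest difference between genotypes of the 42 genes at 6 h and the highest at 12 h. Its KO minus WT difference was 0.40 at 0 h, -0.71 at 6 h, 0.61 at 12 h and -0.66 at 24 h, each with an interval that includes 0. The difference in 6 h response was -1.1 (interval -2.24 to 0.03). For Ctsc the LPS rises were 3.60 in KO cells and 3.66 in WT cells at 6 h, 3.61 in KO and 3.77 in WT at 12 h, and 2.70 in KO and 2.90 in WT at 24 h. Npc1 fell by 0.99 in KO cells and 0.99 in WT cells at 6 h, and Gusb by 1.08 in KO cells and 1.16 in WT cells at 24 h.

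**Figure D5:**
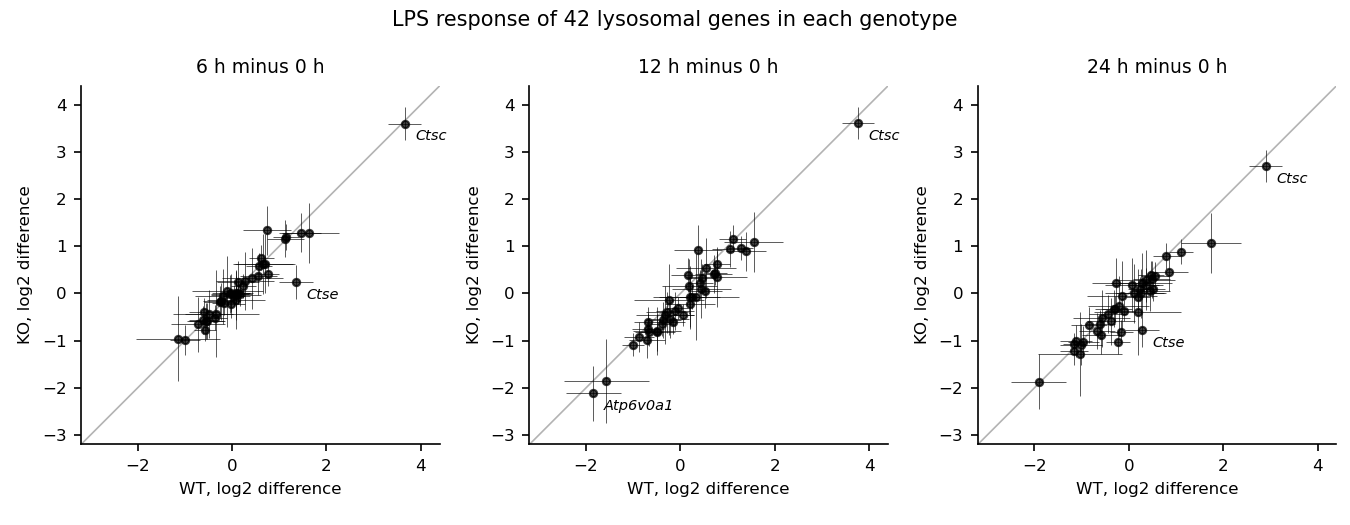
Log2 difference between LPS and 0 h in KO cells (y axis) against that in WT cells (x axis) for the 42 genes at 6, 12 and 24 h, with bars of 1 standard error and a line of equality. The points lie along the line, with Ctsc at the upper right, and Ctse falls below it at 6 and 24 h.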

How the data were processed

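Total RNA of 16 samples was labelled with Cy3 and hybridised to single-colour arrays, 4 to a slide. The deposited scanner files hold the processed intensity of each spot, with background subtracted by Agilent Feature Extraction 10.5.1.1, per the file headers. The authors' series table holds log2 values, which correlated with the log2 scanner intensity at r = 1 on every array, and served as an alternative. Here control spots and outlier spots were removed, no spot was saturated (0), log2 intensities were averaged per probe, and each array's 75th percentile was subtracted. Probes well above background on both arrays of at least 1 group were kept (26855), and the probe of highest mean stood for a gene. A linear model of the 8 groups (limma 3.58.1, R 4.3.3) gave p-values, adjusted by Benjamini-Hochberg over 17648 genes, with a threshold of 0.05. Figures and motif searches used Python 3.11.15. Alternatives were a session term, slides, quantile and median scaling, normexp background (offset 50), other filters, other probes and leaving out each array. The limma step was tested on simulated data with noise independent between arrays, so that test did not cover an effect of the session.

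Replicate numbers pair the samples: each is a scan session, and for each of the 28 pairs of groups the same-numbered arrays deviated together (correlation 0.40 to 0.84, with a median of 0.58). Each array value is printed for the 14 genes with the smallest adjusted p among those that passed for LPS, and for Lipa, Psap, Cst7 and Sort1, picked after their values were seen, with other genes by estimate, and up to 4 genes each way of each further list. The genes and lists were chosen with earlier results of these data known. A gene of the list of membrane proteins is not reported here and was left out of that list.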

Additional observations from a re-analysis of the deposited data

How the results depend on the processing

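The counts of genes that passed out of 42, at 6, 12 and 24 h of LPS and for 24 h against 6 h, were 13, 15, 11 and 8. They became 23, 26, 22 and 18 with the replicate block (the session term), and 22, 23, 17 and 15 with slides as a block. Quantile normalization gave 23 at 6 h. Median scaling gave 4, 5, 3 and 1, and normexp background 1, 4, 1 and 0. Chosen after seeing the data, quantile normalization with the block gave 33, 27, 23 and 16, median scaling with the block gave 21 at 24 h, and normexp with the local background capped gave 24, 28, 24 and 19 with the block. Leaving out 1 array at a time gave 7 to 13, 8 to 13, 7 to 11 and 4 to 9. The other alternatives for these counts stayed within 1.5 times, and the counts for KO against WT stayed at 0 in all of them. With slides as a block the median difference of the 42 genes at 24 h of LPS was -0.004, against -0.17 without the block.

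Among differences that passed without the block at the 75th percentile or under the alternative named, directions turned as follows. Quantile normalization, with or without the block, gave at 6 h Atp6v0b -0.18, Atp6v0c -0.73, Atp6v0e -0.55, Atp6v1f -0.62, Lamp2 -0.17, Cd63 -0.63 and Cstb -0.20, at 12 h Lamp2 -0.013, and for 24 h against 6 h Atp6v0e 0.55 and Atp6v1f 0.56. The signs of Ctsl (-0.44) and Lgmn (-0.73) at 6 h, Atp6v1f (-0.39) and Ctsb (-0.37) at 12 h, and Lamp1 (0.32) for 24 h against 6 h also turned under it, with passing values only with the block, which leaves differences as they are. Gla at 6 h, which passed with the block at the 75th percentile, gave -0.10 under it, and other signs turned where neither value passed, such as Ctsb at 6 h (-0.24) and Neu1 at 12 h (-0.23). Normexp background gave at 12 h Atp6v0b -0.83, Atp6v1d -0.51, Atp6v1e1 -0.56, Ctsh -0.19, Ctsz -0.43, Lamp2 -0.93, Npc2 -0.41, Tcirg1 -0.48, Naaa -0.043, Ap3b1 -0.95, Ap1s1 -0.38, Nagpa -0.31, Rheb -0.80, Lamtor5 -0.85, Cstb -0.94 and Cst6 0.81. On 2 of the 12 h arrays 1 spot had a local background of 362027 or 722571 against medians near 20, and with that background capped none of the 12 h signs turned. The second Ctsb probe gave -0.88 at 6 h and -1.47 at 12 h, and another Glb1 probe 1.14 for 24 h against 6 h. Apart from the capped background, the cause was not tested. With 2 arrays a group, the median half-width of the 95% interval was 0.86 for a KO against WT difference at a single time.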

Other observations

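Of 28 other lysosomal membrane proteins tested, 9 were higher and 8 lower at 6 h (19.5% and 21.2% of all genes). The counts were 6 and 8 at 12 h (16.9% and 17.6%), and 4 and 6 at 24 h (11% and 11.7%). Their medians were -0.20, 0.07 and -0.11, beside 0.05, 0.02 and -0.03 over all genes. With the session term 8 were higher and 10 lower at 24 h (20.4% and 21.5% of all genes). Mcoln3, another relative of Mcoln1, is counted among the lower ones at all 3 times, was well above background on 5 of the 16 arrays, and has no fold here. The peptide and histidine transporter Slc15a3 rose by 3.45 ± 0.35 at 6 h (limma adjusted p = 2.91e-05) and 2.74 ± 0.35 at 24 h, and the iron transporter Slc11a2 by 1.91 ± 0.23 and 1.42 ± 0.23. Mcoln2, a further relative of Mcoln1, rose by 2.14 ± 0.40 at 12 h. The channel gene Tpcn1 fell by 3.18 ± 0.22 at 6 h and 1.58 ± 0.22 at 24 h, the cystine exporter Ctns by 3.12 ± 0.27 at 6 h and the amino acid transporter Slc36a1 by 3.1 ± 0.34 at 6 h. These calls held without any single array.

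Of 19 genes that sort hydrolases to lysosomes, 4 were higher and 2 lower at 6 h (19.5% and 21.2% of all genes). At 12 h 4 and 3 passed (16.9% and 17.6%), and at 24 h 3 and 3 (11% and 11.7%). Medians of this list were 0.18, 0.29 and -0.10, beside 0.05, 0.02 and -0.03 over all genes. With the session term 7 were higher and 4 lower at 6 h (30.1% and 29.4%) and at 12 h (26.6% and 26.7%). M6pr, the small receptor for mannose 6-phosphate, rose by 1.44 ± 0.24 at 6 h (limma adjusted p = 0.00084) and 1.69 ± 0.24 at 12 h, while the large receptor Igf2r fell by 1.0 ± 0.22 at 24 h. Sort1, another sorting receptor, had values that depended on the session. Sort1 in KO cells was at 1.45 and 1.83 at 0 h, -0.25 and -2.52 at 6 h, -1.86 and -4.79 at 12 h, and -1.42 and -5.51 at 24 h. Sort1 in WT cells was at 1.67 and 2.03 at 0 h, -0.22 and -1.71 at 6 h, -1.99 and -4.34 at 12 h, and -1.66 and -5.4 at 24 h. Stimulated arrays lay below all unstimulated ones, and the fall was deeper in session 2. It fell by 4.99 ± 1.14 at 12 h and 5.24 ± 1.14 at 24 h, and did not pass at 6 h without the session term.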
